A study of Mus musculus with 168 samples.

Results

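The genes described here are 9 targets of the transcription factor p53 whose products hold or slow the cell cycle: Cdkn1a, Ccng1, Plk2, Plk3, Gtse1, Btg2, Ptprv, Sesn1 and Sesn2. They were taken by name, and each had a row in the deposited table of 39410 rows. They were chosen by their function together with the genotype differences and control levels already seen in these samples, so the comparisons of SMA with control and the fall with age in controls are given as descriptions. Neurons were laser-captured from tissue sections of delta7 mice, a model of spinal muscular atrophy (SMA), and of littermate controls. SMA mice were Smn-/-, SMN2+/+ and SMN∆7+/+, and controls were Smn+/+ with the same human transgenes, SMN2+/+ and SMN∆7+/+, so that both genotypes carried them. Mice were taken at postnatal days 2, 5 and 10, with 6 control and 9 SMA mice at day 2, 5 of each at day 5, and 4 control and 5 SMA mice at day 10. In all there were 34 mice, and a mouse usually gave several of 6 populations of neurons. These were motor neurons of the oculomotor and trochlear nuclei (ocular), the facial, vagus and hypoglossal nuclei and the lumbar spinal cord, and neurons of the red nucleus, which are not motor neurons. The 168 libraries gave 160 samples of a mouse and a population, 72 control and 88 SMA, in 36 groups of 3 to 7 mice.

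When a cell meets DNA damage or another stress, p53 protein is stabilised and switches on genes that stop division, repair DNA or start cell death. Cdkn1a encodes p21, which binds and blocks the cyclin-dependent kinases that drive the cell into S phase. Neurons have already left the cell cycle, and in them these genes are commonly read as a sign of p53 activity. Ccng1 encodes cyclin G1, which helps return p53 to its low resting level, and Gtse1 encodes a microtubule-binding protein of the later cell cycle that also restrains p53. Plk2 and Plk3 are polo-like kinases, and Plk2 is in addition an activity-regulated gene of neurons that acts at synapses. Btg2 is an antiproliferative gene that is also an immediate early gene. Ptprv, a receptor-type tyrosine phosphatase, is a p53 target in mouse. Sesn1 and Sesn2 encode sestrins, stress proteins that restrain the growth kinase mTORC1.

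On the GRCm38 build Cdkn1a lies at chr17:29090976-29100727 on the plus strand, Ccng1 at chr11:40748552-40755311 on the minus strand, Plk2 at chr13:110395046-110400844 on the plus strand and Plk3 at chr4:117128655-117133963 on the minus strand. Gtse1 lies at chr15:85859745-85876573 on the plus strand, Btg2 at chr1:134075170-134079120 on the minus strand and Ptprv at chr1:135108497-135132594 on the minus strand, where it is annotated as a processed transcript. Sesn1 lies at chr10:41809935-41908424 on the plus strand and Sesn2 at chr4:132492032-132510501 on the minus strand. The library method does not mark strand, and 3 members overlap another gene in the table. Those 3 neighbours were nearly silent: Tctex1d4, opposite Plk3, reached at most 1.19 RPKM, Gm10535, opposite Ptprv, 0.659, and Gm12981, within Sesn2, 1.14. Cdkn1a also overlaps AC167363.2 on the opposite strand, and Sesn1 overlaps 9930024M15Rik on the same strand. No value is given here for these neighbours.

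The promoters of 8 members were read from RefSeq (GRCm38.p6) as windows of 300 bases, from 250 bases before a transcript start to 50 after it, 11 windows in all. Ptprv had no window. Each was searched on both strands for the p53 response element, which is a pair of 10-base elements with a spacer of up to 13 bases, allowing up to 2 mismatches in the pair. Such a pair was found in 4 of the 11 windows, in Cdkn1a, Ccng1, Gtse1 and Sesn1, and in 4.09% of 32851 promoter windows of the genome. The window of the first of 2 Cdkn1a starts held a pair without mismatch, from 73 to 42 bases before that start. It also held an abutting pair with 1 mismatch. The second Cdkn1a start, 2790 bases from the first, had no pair. The abutting Ccng1 pair had 1 mismatch. The second Gtse1 start also had a pair with 1 mismatch, which lies across the start, and the pair of the second Sesn1 start had 2. At most 1 mismatch was found in 0.627% of all windows. A second motif, the cAMP response element TGACGTCA, was searched on both strands after the sequences had been seen. Plk2 and Btg2 each held it, as did 1.79% of all windows. No pair and no cAMP response element was found in the Plk3 and Sesn2 windows. The matched stretches of Cdkn1a, Ccng1, Sesn1, Plk2 and Btg2 are shown on the strand of the gene, with the matched bases in capitals. They set Cdkn1a and Ccng1, which have a p53 pair near a start, beside Plk2 and Btg2, which do not in their windows. A match is a description of the letters, not evidence of binding.
Cdkn1a, chr17:29090886-29090967, plus strand, capitals mark 10-base p53 elements: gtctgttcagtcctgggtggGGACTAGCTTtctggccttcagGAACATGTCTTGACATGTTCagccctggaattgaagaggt
Ccng1, chr11:40755442-40755506, minus strand, capitals mark 10-base p53 elements: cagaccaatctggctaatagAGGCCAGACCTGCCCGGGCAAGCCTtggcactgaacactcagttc
Sesn1, chr10:41887233-41887310, plus strand, capitals mark 10-base p53 elements: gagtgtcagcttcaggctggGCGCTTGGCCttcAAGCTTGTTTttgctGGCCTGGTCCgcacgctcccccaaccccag
Plk2, chr13:110394962-110395009, plus strand, capitals mark the cAMP response element: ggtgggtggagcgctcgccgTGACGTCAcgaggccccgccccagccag
Btg2, chr1:134079294-134079341, minus strand, capitals mark the cAMP response element: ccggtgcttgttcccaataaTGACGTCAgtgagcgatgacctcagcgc

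Values are RPKM, reads per kilobase of gene and per M mapped reads (M as in Mb), averaged per mouse and population. Depth recovered from the table was 0.342 to 16.3 M reads per library, with a median of 5.89. The lowest was a red nucleus library of control mouse 252 at day 10. Mouse Smn1 was 4.32 to 63.3 in the 72 control samples and 0 to 4.24 in the 88 SMA samples, of which 70 were at 0. Chat, the acetylcholine-synthesising enzyme of motor neurons, averaged 20.2 to 33.9 in the motor populations of controls and 0.176 in the red nucleus, where Pou4f1, a marker of that nucleus, averaged 227.8. About 150 cells were pooled per tube, so fewer cells of a type and less RNA per cell cannot be told apart in these values. Differences between groups are on the scale log2(RPKM + 1), from limma with its standard error (SE), and a gene is called past the threshold at a Benjamini-Hochberg adjusted p under 0.05 over all genes tested in the comparison. The mouse is the replicate, as the numbers in the labels mark single animals.

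Control neurons started from very different levels of Cdkn1a. At day 2 the mean in controls was 104 ± 21.4 (SD, n = 4) in the red nucleus, 65.7 ± 18.6 (n = 3) in the vagus, 48.4 ± 13.4 (n = 4) in ocular neurons, 27.4 ± 7.97 (n = 4) in the hypoglossal nucleus, 19.6 ± 2.84 (n = 4) in lumbar neurons and 19.5 ± 16.5 (n = 5) in facial neurons. By day 10 the red nucleus was at 45.8 ± 23.6 and the vagus at 40.02 ± 16.7, while the other 4 populations lay between 3.93 ± 1.66 in ocular and 7.42 ± 5.43 in hypoglossal neurons (n = 4 each). Control mice thus formed a high pair, red nucleus and vagus, and a low set of 4. The lowest red nucleus and vagus mice at day 10, at 24.3 and 16.4, were above every control mouse of the other 4 populations, whose highest was lumbar mouse 253 at 15.4. Neighbours in the order were not separated past the threshold at day 2. The step from the vagus to the next population was, at day 5, where ocular minus vagus was -1.48, and at day 10, where vagus minus hypoglossal was 2.64. Within the high pair the day 10 difference, vagus minus red nucleus, was -0.19 (95% interval -1.17 to 0.80), and no pair of the low set was separated at that age.

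Cdkn1a fell from day 2 to day 10 past the threshold in controls of 4 populations. In ocular controls the day 2 mice were at 35.98, 37.98, 56.86 and 62.73 and the day 10 mice at 1.62, 3.85, 5.04 and 5.23. The ages did not overlap, the mean was 12.3-fold lower, and it fell by 3.36 ± 0.37 (SE) on the log2 scale. In hypoglossal controls the mice went from 16.9, 26.2, 30.5 and 35.8 to 0.120, 7.23, 9.30 and 13.04, a 3.69-fold lower mean. The value of 0.120 came from mouse 247, whose hypoglossal library had 4.35 M reads. The mean was 2.84-fold lower in lumbar and 2.27-fold lower in red nucleus controls, again with no overlap of the ages. Facial controls, at 2.24, 8.25, 14.2, 31.1 and 41.99 at day 2 and 1.12, 7.27, 8.34 and 10.7 at day 10, overlapped and did not pass, and vagus controls overlapped as well. Of all genes tested, 3.64% were called lower at day 10 than at day 2 in ocular, 2.76% in facial, 0.437% in vagus, 2.68% in hypoglossal, 7.25% in lumbar and 5.42% in red nucleus controls. With only the day 2 and day 10 controls in the fit, the ocular and lumbar Cdkn1a calls passed and the hypoglossal and red nucleus calls did not. The hypoglossal call was also lost without mouse 28 or 247, the lumbar call without mouse 247, and the red nucleus call without mouse 28, 247 or 252.

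The other members that fell in controls were Plk2 in 4 populations and Ccng1 and Plk3 in 2 each. In all, 12 member and population pairs passed the threshold downward from day 2 to day 10 and 0 upward. Plk2 went from 7.01, 7.57, 13.7 and 21.2 in ocular controls at day 2 to 2.193, 2.319, 3.757 and 4.003 at day 10, without overlap. Its mean was 20.7 and 6.88 in facial, 12.4 and 4.65 in hypoglossal and 52.98 and 20.28 in red nucleus controls at these ages. In vagus controls Plk2 stayed near its start, at means of 18.6, 16.6 and 17.2 at days 2, 5 and 10. Ccng1 fell by 0.80 ± 0.18 (SE) in ocular and by 0.91 ± 0.20 in lumbar controls. Plk3 fell by 1.16 ± 0.34 in facial controls, from a mean of 22.4 to 9.80, and by 1.14 ± 0.28 in lumbar controls, from 27.43 to 12.03. The facial fall of Plk3 was lost when any 1 of 12 mice was left out and the hypoglossal fall of Plk2 with any 1 of 10 left out. With only the 2 ages in the fit, 3 of the 12 falls passed. Gtse1, Btg2, Ptprv, Sesn1 and Sesn2 passed in no population.

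**Figure D1:**
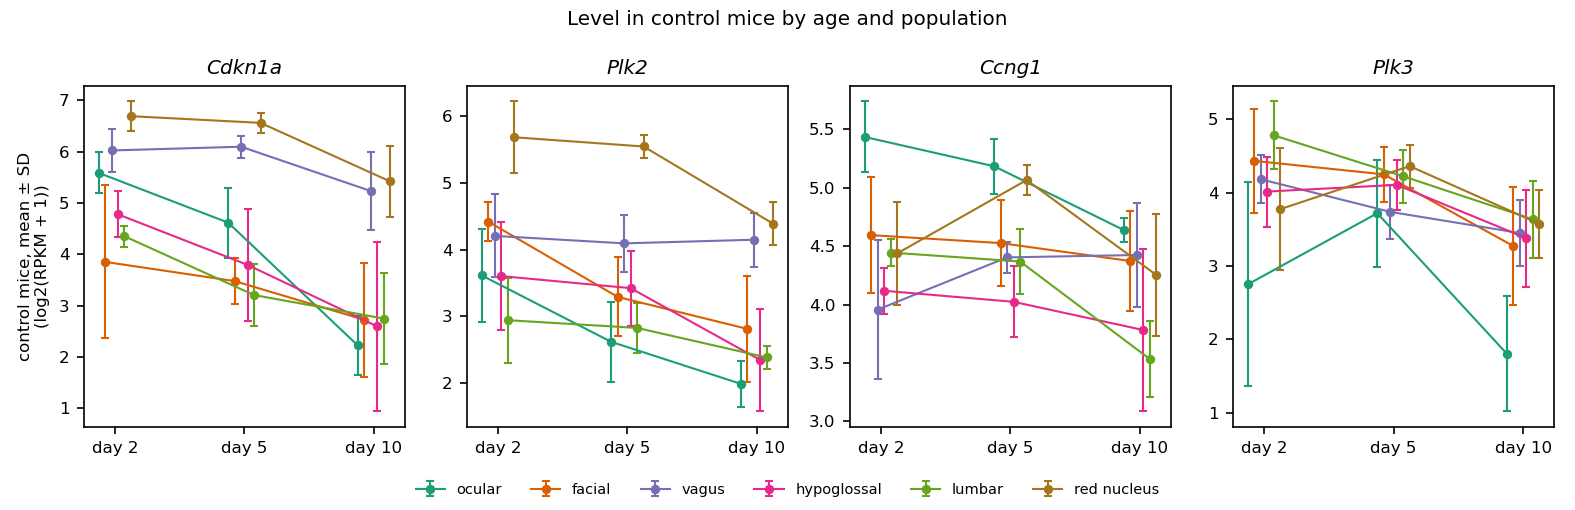
Level of Cdkn1a, Plk2, Ccng1 and Plk3 in control mice at days 2, 5 and 10, as the mean of log2(RPKM + 1) with its SD, 1 line per population (3 to 5 mice a point). The red nucleus line is highest for Cdkn1a and Plk2 at every age, and the ocular line of Cdkn1a runs from a mean of 48.4 to 3.93 RPKM.

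The members did not share their order over populations in controls. Plk2 was highest in the red nucleus at each age, at 52.98, 45.72 and 20.28, and lowest in lumbar neurons at day 2 (7.25) and in ocular neurons at days 5 and 10 (5.55 and 3.07). Ccng1 was instead highest in ocular neurons at each age, at 42.9, 35.7 and 23.9, and Sesn1 was also highest there. Plk3 was lowest in ocular neurons at days 2 and 10, at 7.94 and 2.89. Ptprv stood out in lumbar neurons at day 2, at 5.92 ± 1.52 (SD, n = 4). The control levels were known when the genes were chosen, so which members were past the threshold of limma's F test over populations is given as a description. Plk2, Ccng1 and Cdkn1a were past it at days 2, 5 and 10, Plk3, Btg2 and Sesn1 at days 2 and 10, and Ptprv at day 2. Gtse1 and Sesn2 passed at no age. In all, 16 of 27 results of a member and age passed, where 28% of all genes did at day 2, 23% at day 5 and 23.6% at day 10. Taken by pairs, of the 45 pairs of populations and ages, Cdkn1a and Plk2 each passed in 22, Ccng1 in 14, Plk3 in 7, Btg2 and Ptprv in 5 and Sesn1 in 4.

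In SMA mice, Cdkn1a was past the threshold above controls in ocular, facial, hypoglossal and lumbar motor neurons by day 10, with a larger estimate at each later age, and not in the vagus or red nucleus. The 9 genes gave 51 comparisons of SMA with control at each age over the 6 populations, because Gtse1 did not reach the low-value filter in the vagus and red nucleus, nor Ptprv in the vagus. Over the 3 ages 24 were past the threshold, all higher in SMA: 0 at day 2, 5 at day 5 and 19 at day 10. At unadjusted p under 0.05 limma gave 11 of 51 at day 2. Of all genes tested at that age it gave 1787 of 15890 in ocular, 1566 of 17270 in facial and 1116 of 16703 in vagus neurons. It gave 1587 of 16486 in hypoglossal, 936 of 16382 in lumbar and 1522 of 16134 in red nucleus neurons. The median difference of the members was 0.28 at day 2, 0.62 at day 5 and 0.95 at day 10, while the median of all genes tested lay between -0.01 and 0.13 over the 18 comparisons. Of all genes tested, those called higher in SMA at days 2, 5 and 10 made up 0.101%, 0.0189% and 0.334% in ocular, 0.0116%, 0.0637% and 0.562% in facial, 0.0243%, 0% and 0.0667% in hypoglossal and 0.0061%, 0.0366% and 0.708% in lumbar neurons. They were 0% at each age in the vagus and 0.031%, 0% and 0.0062% in the red nucleus. These shares are given as background only, as the genes were chosen with these contrasts known. In fits of just the SMA and control mice of that age, 12 of the 24 passed.

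Cdkn1a at day 10 was 152.1, 197.7, 228.7, 274.4 and 304.8 in the 5 ocular SMA mice against 1.62, 3.85, 5.04 and 5.23 in the 4 controls. Every SMA mouse was above every control, the mean was 58.9-fold higher, and the difference was 5.59 ± 0.35 (SE). Facial SMA mice were at 227.2, 370.5, 384.6 and 434.5 against 1.12, 7.27, 8.34 and 10.7, a 51.7-fold higher mean. In lumbar neurons the SMA mice were at 128.2, 175.9, 184.1, 235.4 and 275.6 and the controls at 3.091, 4.002, 5.085 and 15.41, a 29.0-fold higher mean. Hypoglossal SMA mice were lower than these, at 74.03, 77.12, 101.4, 112.9 and 139.3, but still apart from controls of 0.120 to 13.04, with a 13.6-fold higher mean. In the vagus the genotypes lay over each other, with SMA mice at 28.6, 32.2, 40.3, 54.3 and 61.1 and controls at 16.4, 42.5, 45.6 and 55.6, a difference of 0.18 ± 0.38. Red nucleus SMA mice were at 69.5, 76.2, 90.3 and 92.4 and controls at 24.3, 35.2, 44.8 and 78.8. Those groups overlapped, with a difference of 0.95 ± 0.36 that did not pass. The large folds in ocular, facial, hypoglossal and lumbar neurons join an SMA mean that was higher at day 10 than at day 2 with a control mean that was lower. Over the same days Cdkn1a rose within SMA mice past the threshold in ocular (1.63), facial (2.39) and lumbar (1.56) neurons.

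**Figure D2:**
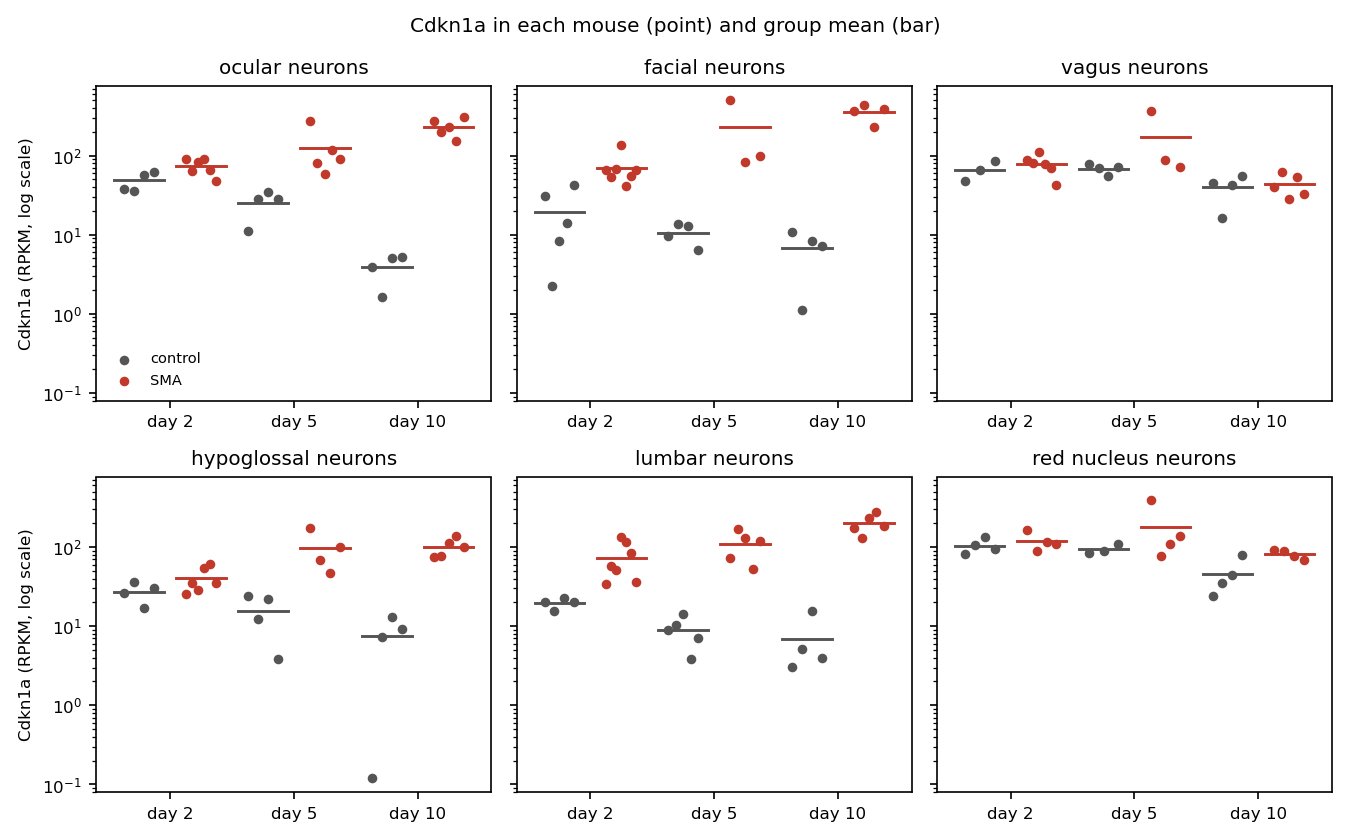
Cdkn1a in RPKM on a log axis for each mouse (point) with the group mean (bar), by age, in the 6 populations, controls grey and SMA red. At day 10 the SMA mice of ocular, facial, hypoglossal and lumbar neurons lie above all controls, while in the vagus both genotypes share the range of 16.4 to 61.1.

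At the earlier ages the Cdkn1a values of the genotypes were apart in some populations. In lumbar neurons at day 2 the 7 SMA mice ran from 33.9 to 135 with a median of 57.7 and the 4 controls from 15.6 to 22.4. The groups did not overlap, but the difference of 1.69 ± 0.38 (SE) did not pass over all genes. Facial SMA mice at day 2 were at 41.4 to 134, with a median of 65.9. The value of 134 came from mouse 206, whose facial library was among those of lowest depth. Controls were at 2.24 to 41.99, so that a single control reached the SMA range. At day 5 Cdkn1a was past the threshold in ocular (2.13 ± 0.35), facial (3.85 ± 0.66) and lumbar neurons (3.45 ± 0.38). The ocular call was lost without control mouse 29. Lumbar SMA mice were then at 52.22, 72.68, 119.1, 129.3 and 167.1 and controls at 3.88, 7.18, 8.89, 10.3 and 14.1. Hypoglossal SMA mice, at 46.89, 68.84, 99.86 and 174.1, were also above controls of 3.86, 12.32, 22.01 and 23.80, without passing. Over all ages, every SMA mouse was above every control in 9 of the 18 comparisons, of which 7 passed. Groups this small can also separate by chance, and the share of all genes that did so is not given here.

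A single mouse carried much of the spread at day 5. SMA mouse 31 had the highest Cdkn1a of its group in 5 of the 6 populations: 272.8 in ocular, 498.3 in facial, 360.03 in vagus, 174.1 in hypoglossal and 392.2 in red nucleus neurons. The next highest SMA mice were at 117.8, 98.89, 88.82, 99.86 and 139.0. In lumbar neurons the same mouse, at 72.7, was the second lowest of 5. Its ocular value was the mean of 2 libraries at 205.9 and 339.7, and its red nucleus value that of 2 at 353.8 and 430.7, so separate tubes gave high values. The libraries of this mouse from these 5 populations carry consecutive library numbers. Its lumbar library is numbered apart from them, among the other lumbar libraries of day 5. The mouse and the set of libraries therefore cannot be told apart. Btg2 was likewise highest in this mouse in the same 5 populations, while Ccng1 was lowest in it in ocular, facial, hypoglossal and red nucleus neurons. Without mouse 31 the facial difference at day 5 was 3.03 and no longer passed, the ocular one was 1.79 and did, and the vagus and red nucleus differences were 0.233 and 0.180 in place of 0.96 and 0.65.

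**Figure D3:**
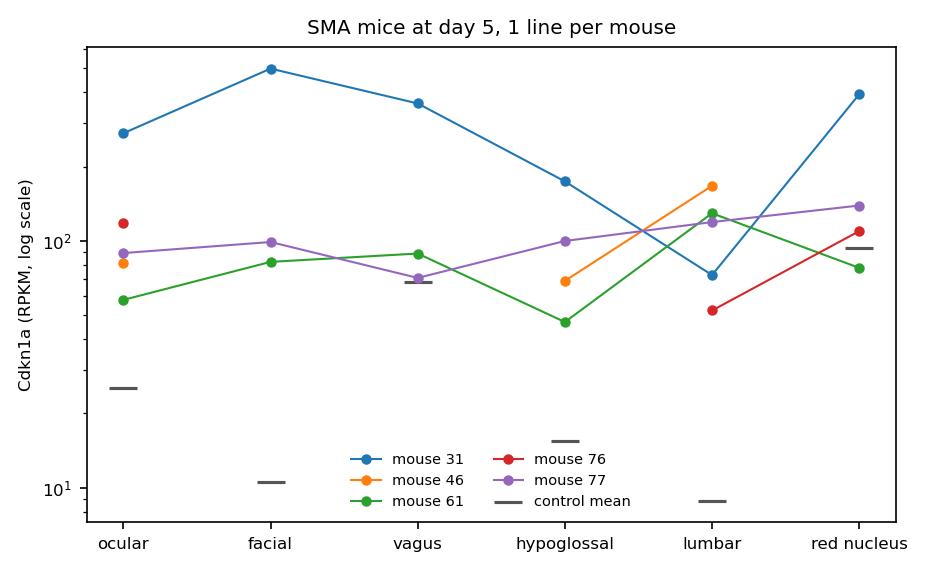
Cdkn1a in RPKM on a log axis in the SMA mice at day 5, 1 line or point series per mouse over the 6 populations, with the control mean as a grey bar. Mouse 31 lies above the others everywhere except in lumbar neurons, where it was at 72.7 and mouse 46 was highest.

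Ccng1 differed less in fold, from a higher level in controls of ocular, facial and lumbar neurons. At day 10 the facial SMA mice were at 60.8, 67.2, 74.2 and 96.5 against controls of 12.6, 20.6, 22.3 and 25.9, a difference of 1.85 ± 0.25 (SE). Ocular SMA mice were at 46.73, 50.50, 50.97, 51.17 and 58.89 against 22.4, 22.6, 24.8 and 25.9, a difference of 1.08 ± 0.17. Both genotypes were tight there, and they stood well apart. In lumbar neurons Ccng1 was past the threshold at day 5 (0.97 ± 0.18) and at day 10 (1.74 ± 0.19), with SMA mice at 27.7 to 49.2 and controls at 7.46 to 12.9 at the later age. The day 5 call was lost without mouse 30, 34 or 77. Counting those that did not pass, every SMA mouse was above every control in 8 of 18 comparisons, of which 4 passed. The others were ocular, facial and hypoglossal neurons at day 5 and lumbar neurons at day 2. The share of all genes separated in this way is not given here. In the red nucleus at day 5 the mice were apart the other way, with SMA mice at 20.37, 21.97, 25.39 and 28.29 below controls of 30.4, 31.3 and 36.1, a difference of -0.43 that did not pass. In the vagus at day 10 the estimate was -0.41, with SMA mice at 8.69 to 27.9 and controls at 14.2 to 28.5.

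Plk2 was past the threshold in 5 comparisons, 4 of them at day 10. Ocular SMA mice at day 10 were at 25.0, 25.1, 25.7, 25.9 and 60.3, controls at 2.193, 2.319, 3.757 and 4.003, and the difference was 2.97 ± 0.37 (SE). Mouse 249 held the value of 60.3, and the other 4 lay within 1 RPKM of each other. The differences at this age were 2.32 ± 0.31 in facial, 1.959 ± 0.35 in hypoglossal and 2.30 ± 0.30 in lumbar neurons, without overlap in any of them. The ocular and lumbar calls also passed in a fit of just those 2 groups, and the hypoglossal call was lost without control mouse 247 or 254. Facial Plk2 also passed at day 5, at 27.1, 30.2 and 35.1 in SMA mice against 4.75 to 14.6 in controls, a call that was lost when any 1 of 11 mice was left out. In the red nucleus at day 10 the SMA mice, at 32.4, 34.1, 35.5 and 38.8, were all above the controls, at 15.1, 17.8, 23.7 and 24.6, but the difference of 0.79 ± 0.24 did not pass. Plk3, the other polo-like kinase, passed nowhere, with estimates from -0.60 to 0.90 and overlapping mice in all 18 comparisons. It was the only member to fall within SMA mice from day 2 to day 10, by 1.28 in lumbar neurons.

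Gtse1 was close to absent in controls and present in SMA at day 10. Facial controls were at 0, 0, 0.119 and 2.67 and SMA mice at 6.15, 6.18, 8.07 and 8.20, a difference of 2.51 ± 0.46 (SE). Ocular controls were at 0 to 0.946 and SMA mice at 2.83 to 10.6 (2.35 ± 0.46), hypoglossal controls at 0 to 0.361 and SMA mice at 2.58 to 3.83 (1.87 ± 0.29), and lumbar controls at 0 to 0.728 and SMA mice at 2.42 to 5.89 (1.91 ± 0.38). All 4 passed without overlap, and all 4 no longer passed with a pseudocount of 0.1. The ocular call was also lost without control mouse 252. A count of 3 reads corresponded to 0.0677 to 3.22 RPKM of Gtse1 over the libraries, with a median of 0.187. In hypoglossal neurons at day 5 all 4 controls were at 0 and the SMA mice at 0, 0.492, 0.921 and 2.35. The groups overlapped, and the difference of 0.82 ± 0.30 did not pass. The SMA mean of 0.940 was 4.93-fold the largest value that 3 reads stood for in the control libraries. The vagus, at 0 to 0.680, and the red nucleus, at 0 to 2.27, had little Gtse1 in either genotype at day 10.

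Ptprv was also low in most controls at day 10, with more spread between SMA mice, but it was present in some controls earlier. Lumbar controls at day 2 were at 4.33 to 7.67 and ocular controls at day 5 at 0, 2.92, 3.10 and 6.89. Its estimate was -0.61 in lumbar neurons at day 2, and -0.19 in ocular and -0.25 in hypoglossal neurons at day 5. It was above 0 in 10 of 15 comparisons. Ocular SMA mice at day 10 were at 8.73, 14.3, 17.8, 19.1 and 33.5 against controls of 0, 0, 0.445 and 1.26, a difference of 3.75 ± 0.52 (SE) that passed. The highest of these, mouse 196, is the mean of an oculomotor tube at 64.96 and a trochlear tube at 1.98, and the trochlear tube of control mouse 254 was at 2.36. Without mouse 196 the difference was 3.52 and passed. Lumbar SMA mice were at 4.856, 13.03, 13.68, 15.25 and 23.60, and controls were at 0 in 3 mice and at 6.13 in mouse 254. Those groups overlapped in a single mouse on each side, and the difference of 3.07 ± 0.71 passed, but not when any 1 of 7 mice was left out. Facial SMA mice split into 1.958 and 2.372 against 21.99 and 27.49, and hypoglossal SMA mice ran from 1.11 to 13.9. Both groups were above all their controls without passing. In the vagus Ptprv was at 0 in every mouse of both genotypes at day 10, and in the red nucleus in every mouse at day 2.

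Btg2 was past the threshold in 2 comparisons at day 10. Facial SMA mice were at 11.9, 15.8, 16.8 and 18.5 and controls at 1.13, 3.45, 3.69 and 6.77 (1.94 ± 0.47, SE). Lumbar SMA mice were at 3.86, 4.94, 5.86, 7.47 and 12.3 and controls at 0, 0.498, 2.42 and 2.82 (1.81 ± 0.42). The facial call was fragile, since it was lost when any 1 of 19 mice was left out, and the lumbar call was lost with any 1 of 4 left out. The ocular difference was of like size at 1.97 ± 0.55, with an overlap and without passing, and the Btg2 estimate was above 0 in 17 of 18 comparisons. The sestrins passed nowhere. Sesn1 estimates ran from -1.05 to 0.77, and those of Sesn2 from -0.12 to 1.395. Sesn2 was above 0 in 17 of 18, but only in lumbar neurons at day 2 were all SMA mice, at 0.987 or more, above the highest control at 0.735 (1.395 ± 0.32). No member reached unadjusted p under 0.05 in limma in the vagus at days 2 and 10 or the red nucleus at day 5. In the vagus at day 5 and in the red nucleus at day 2, 1 did each time. In the red nucleus at day 10, 3 did. Of all genes tested, 1116, 885 and 760 of 16703 did in the vagus at days 2, 5 and 10. In the red nucleus 1522, 498 and 969 of 16134 genes did at these ages.

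**Figure D4:**
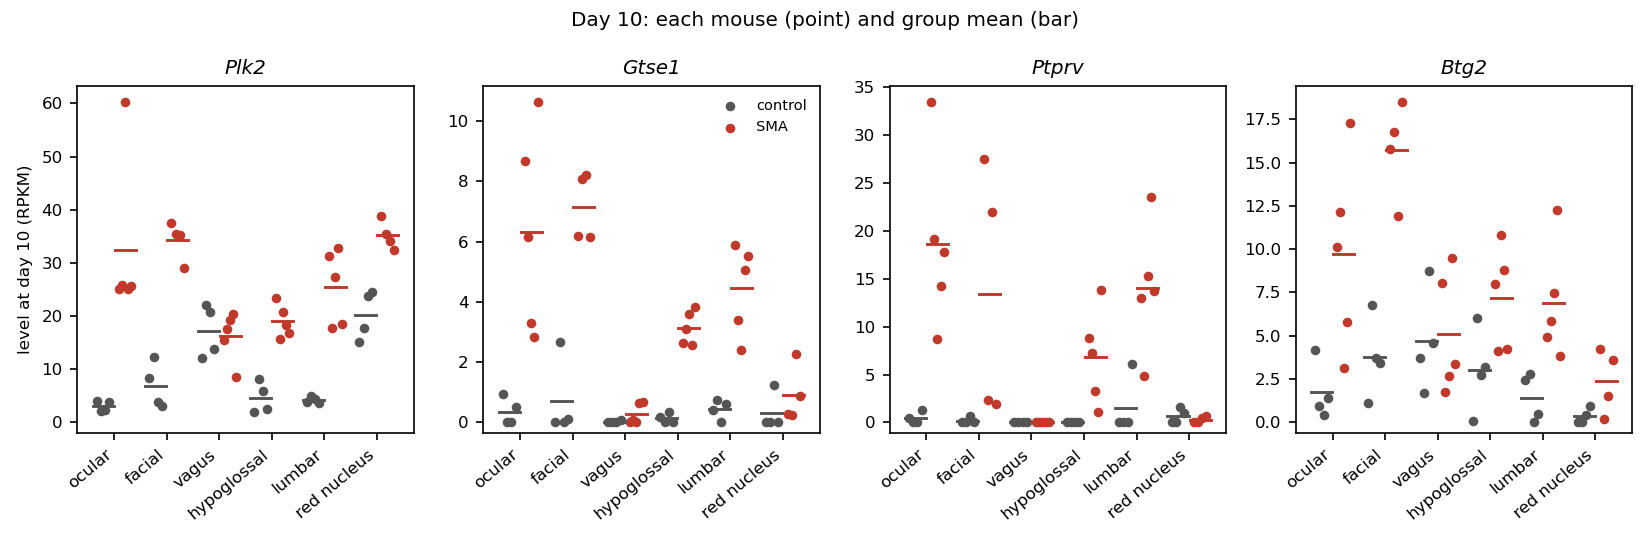
Plk2, Gtse1, Ptprv and Btg2 in RPKM at day 10 for each mouse (point) with the group mean (bar), by population, controls grey and SMA red. Gtse1 and Ptprv lie near 0 in most controls, and Plk2 in the vagus is at 8.58 to 22.1 over both genotypes.

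Within SMA mice the members rose in 12 of 51 pairs of member and population between day 2 and day 10, and Plk3 in lumbar neurons was the single fall. Gtse1 rose in ocular (2.51), facial (2.29), hypoglossal (1.86) and lumbar (1.81) neurons. Ptprv rose in ocular (3.27) and hypoglossal (2.21) neurons, Plk2 in ocular (1.15) and lumbar (1.25) and Ccng1 in facial neurons (1.03). The share of all genes called higher at day 10 than at day 2 in SMA mice was 3.63% in ocular, 3.51% in facial, 1.54% in vagus, 2.43% in hypoglossal, 8.55% in lumbar and 2.98% in red nucleus neurons.

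The genotype difference itself changed with age past the threshold only in ocular neurons, for 3 members. From day 2 to day 10 it grew by 5.00 ± 0.49 (SE) for Cdkn1a, 2.77 ± 0.52 for Plk2 and 2.85 ± 0.73 for Ptprv. In the F test over both age terms, 0.101% of all genes passed in ocular and 0.104% in facial neurons, and 0% in the vagus, hypoglossal, lumbar and red nucleus samples. For Cdkn1a the change with age was 3.52 ± 0.80 in facial, 3.53 ± 0.74 in hypoglossal and 3.16 ± 0.55 in lumbar neurons, against -0.05 ± 0.55 in the vagus and 0.75 ± 0.51 in the red nucleus. None of these 5 passed, and with no low-value filter 1 member result passed in place of 3.

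**Figure D5:**
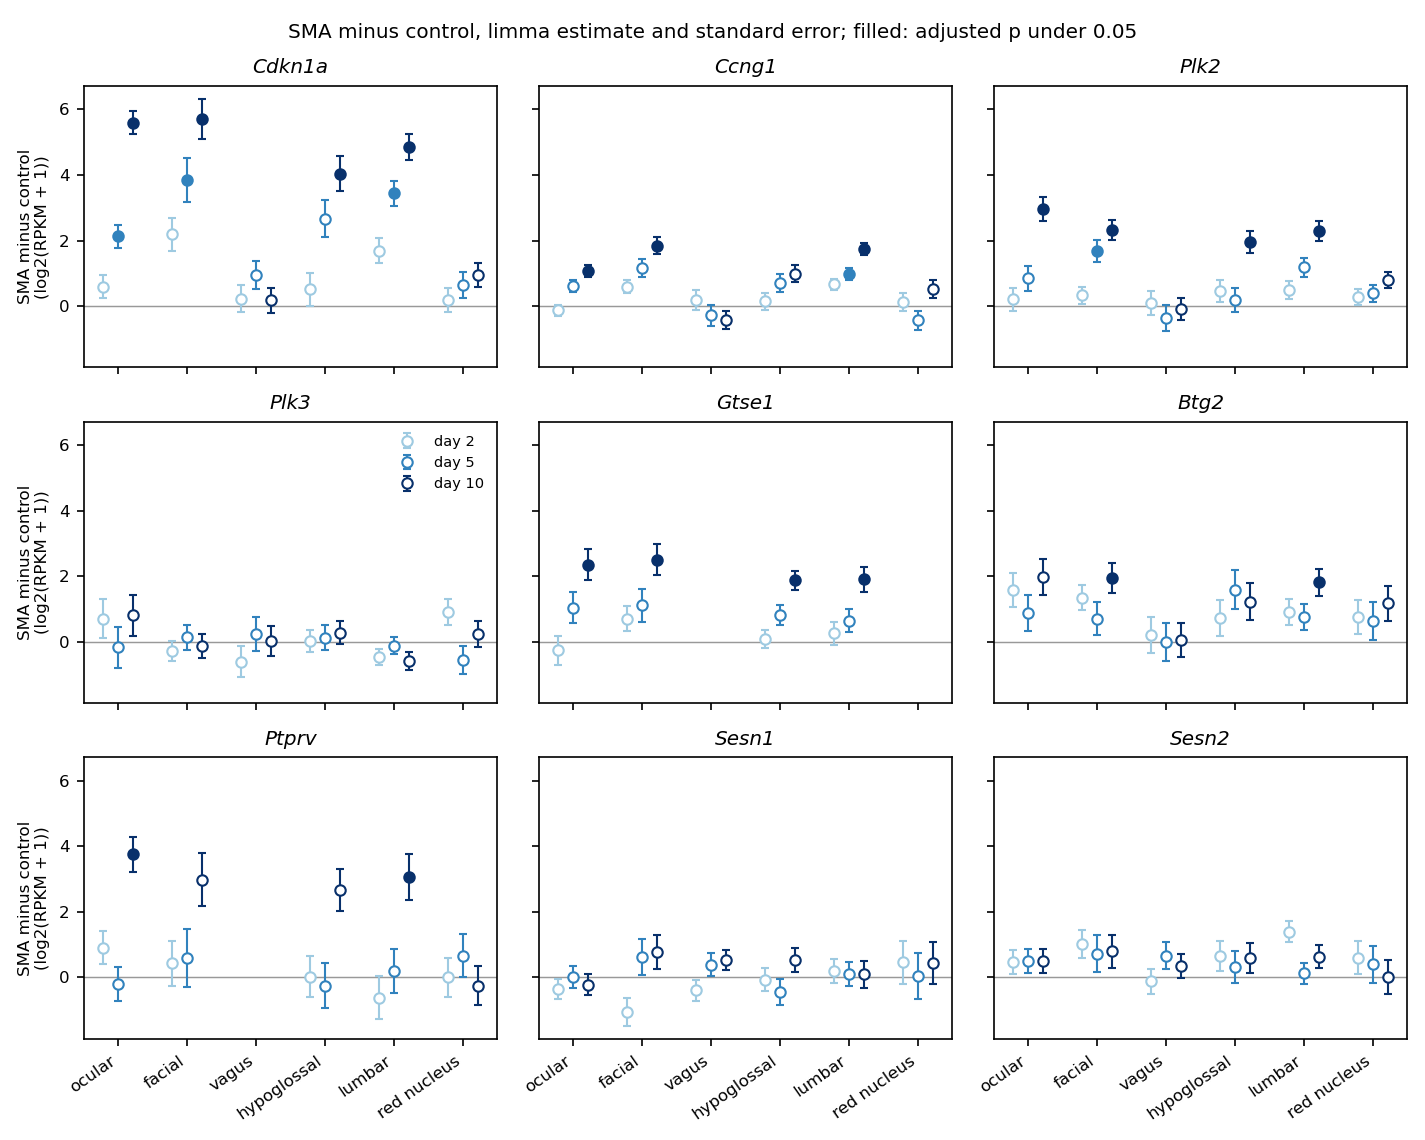
SMA minus control on the log2(RPKM + 1) scale for the 9 genes (panels), by population and age, as limma's estimate with its standard error, with filled points at an adjusted p under 0.05. The 24 filled points lie in ocular, facial, hypoglossal and lumbar neurons, and Plk3, Sesn1 and Sesn2 have none.

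The size of the difference also depended on the population. In 7 of 27 results of a member and age the difference between SMA and control varied over populations past the threshold: Cdkn1a and Ccng1 at days 5 and 10, and Plk2, Gtse1 and Ptprv at day 10. With a pseudocount of 0.1, 4 of the 7 passed. Of all genes, 0.4% passed this test at day 2, 0.207% at day 5 and 0.579% at day 10. For Cdkn1a at day 10, each of the ocular, facial, hypoglossal and lumbar differences exceeded that of the vagus and that of the red nucleus, which made 8 of 15 pairs. The facial difference exceeded that of the vagus by 5.53 (95% interval 4.17 to 6.89) and the hypoglossal one that of the red nucleus by 3.09 (1.73 to 4.45). Among the 4 populations with large differences no pair passed. Facial minus hypoglossal was 1.67 (0.31 to 3.03) and ocular minus facial was -0.11 (-1.47 to 1.25). The vagus and red nucleus were not separated either, at -0.77 (-2.13 to 0.59). For Ccng1 the vagus was below the ocular, facial, hypoglossal and lumbar differences, by 1.41 to 2.26, and the facial difference exceeded that of the red nucleus by 1.32 (0.67 to 1.97). Plk2 passed in 5 pairs, of which ocular minus vagus was the widest at 3.06 (2.17 to 3.95), and Gtse1 and Ptprv passed in 2 each.

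Other genes of the pathway were read from lists chosen with earlier results known. Of 12 genes for p53 and its regulators, 3 of 65 comparisons at day 10 were higher in SMA and 0 lower, with a median difference of 0.18. Mdm2, which marks p53 for degradation and is its target, was at 9.81 in ocular controls and 31.1 in SMA mice at day 10 and at 15.5 and 32.0 in lumbar neurons. Trp53 itself was at 7.39 and 24.9 in facial neurons at day 10 and also passed in ocular neurons at day 2 (means of 2.17 and 9.22). Among p53 targets of cell death, 9 of 63 comparisons at day 10 were higher and 0 lower, with a median difference of 0.78. Fas, a death receptor, made up 4 of these, at day 10 with SMA means of 20.8 in ocular, 20.3 in facial, 9.37 in hypoglossal and 12.98 in lumbar neurons against control means of 0.541, 0.625, 0 and 0. Pmaip1, which encodes the proapoptotic protein Noxa, made up 3. Targets of repair, metabolism and secretion gave 6 of 74 higher and 0 lower at day 10, with a median of 0.17. Dcxr, a xylulose reductase, was past the threshold in 4 of 18 comparisons over all ages, and had means of 32.3 in controls and 226.9 in SMA mice in ocular neurons at day 10.

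Genes that act beside the members in the cell cycle were also read from lists. Of all genes tested, 0% in the vagus to 0.708% in lumbar neurons were called higher in SMA at day 10. At that rate lists of this size would hold few calls or none. The list of cell cycle engine and division genes gave 0 of 120 comparisons past the threshold in limma at day 10, and the other cyclin-dependent kinase inhibitors 0 of 19. At unadjusted p under 0.05 in limma these lists gave 6 and 1, and their median differences were 0.04 and 0.06. Of all genes tested at day 10, from 760 of 16703 in the vagus to 1642 of 16382 in lumbar neurons reached that p. Markers of dividing cells (Mki67, Top2a, Cdk1, Ccnb1 and Birc5) summed to 11.2 to 31.6 RPKM in lumbar SMA mice at day 10 and to 11.5 to 17.2 in controls. Immediate early genes, to which Btg2 and Plk2 are related by their response to activity, gave 0 of 52, with 5 at unadjusted p under 0.05. Of paralogs of the members, 1 of 54 passed at day 10, Plk5 in facial neurons. The integrated stress response list, which includes regulators of Sesn2, gave 1 of 55 at day 10, Ddit3 in lumbar neurons.

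Markers of other cells were also read, and 1 astrocyte and 1 oligodendrocyte marker passed in all. Gfap, an astrocyte filament gene, passed in facial neurons at day 10, with a mean of 1.63 in controls and 17.0 in SMA mice. The 5 astrocyte markers summed there to 25.2 to 35.7 in controls and 39.2 to 68.3 in SMA mice, and none was at 0. The same sum was 20.6 to 47.8 and 25.8 to 48.1 in ocular neurons and 40.9 to 70.2 and 39.6 to 77.1 in lumbar neurons. In hypoglossal neurons it was 17.5 to 40.5 in controls and 37.6 to 51.8 in SMA mice. Mbp, a myelin gene, was higher in red nucleus SMA mice at day 2 (means of 2.55 and 13.9), where no member passed. Microglial markers summed to 3.82 to 8.61 in facial controls and 3.97 to 26.9 in facial SMA mice at day 10. The median difference in facial neurons at that age was 0.46 over astrocyte and 0.21 over microglial markers. It was -0.19 over oligodendrocyte and -0.16 over vessel markers. In ocular neurons at day 10 the 2 red nucleus markers, Pou4f1 and Slc17a6, summed to 4.74 to 16.9 in controls and 9.07 to 176.9 in SMA mice, and the 4 motor neuron markers in the table to 926 to 1024 in controls and 452 to 875 in SMA mice. None of these 6 was at 0 in every mouse and none passed. The median difference was 1.65 over the red nucleus markers and -0.48 over the motor neuron markers, whose 4 estimates were all below 0. The part of other cells in the ocular, facial and hypoglossal differences was not tested.

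Over the 36 group means of all populations, ages and genotypes, Plk2 was the gene with the course most like that of Cdkn1a among 22270 genes, with Pearson's r of 0.779 on log2(mean RPKM + 1). The next non-members were Wdr35 (0.776), Snord13 (0.708), Rnu1a1 (0.703), Pvt1 (0.694) and Tap1 (0.691). Ccng1 (0.589), Gtse1 (0.499) and Btg2 (0.472) were lower, while Sesn1 (0.116) and Plk3 (0.0934) were far down. Gtse1 was more like Ptprv (0.759) and Ccng1 (0.731) than like Cdkn1a. The picture was another one within groups. Over the deviations of 160 samples from their group means the genes most like Cdkn1a were Dpysl3 (0.601), Sv2c (0.579), Gm16580 (0.538), Ttc3 (0.534) and Tanc2 (0.532), none a member. Among members Btg2 led at 0.362, Plk2 was at 0.106 and Ccng1 at -0.0533. The groups share mice, and the samples share depth and dissection, so these values are descriptions without a test.

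The ocular samples joined the oculomotor and trochlear nuclei, which were in separate tubes for a few mice. Control mouse 29 at day 5 and SMA mouse 258 at day 10 had an oculomotor tube only. At day 5 tubes of a single nucleus came from controls alone, so the make-up of the ocular samples differed by genotype at that age. Cdkn1a was 330.2 and 218.7 in the separate tubes of SMA mouse 196 at day 10, and 6.55 and 3.91 in those of control mouse 254. At day 5 the separate tubes of control mouse 30 gave 18.2 and 37.8 and those of control mouse 75 gave 34.5 and 21.2. Neither nucleus was the higher in all mice.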

How the data were processed

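The authors deposited 1 table of RPKM with 168 library columns, each matched to its own labels. Reads were aligned with STAR 2.4.1c to mm10 and hg19, per the submitters' processing notes. The read counter and annotation are not given in the sources used here. Per the labels, the 5 lumbar control libraries of day 5 also contain reads deposited earlier. Libraries of 1 mouse and population were averaged. Log2(RPKM + 1) was fitted with limma 3.58.1 in R 4.3.3 (lmFit, eBayes with trend, two-sided), 1 fit per population over its 6 groups, for genes at RPKM of 1 or more in as many samples as the smallest group (15890 to 17270 genes), and 1 fit over all 36 groups for differences between populations (22270 genes). The scale understates changes of low genes. Depth was recovered from the steps of 17340 single-transcript genes; of low values, 63.6% to 78.9% per library lay within 0.4% of whole reads, so no count test was run. Values at 0 stayed at 0 in the fits and means. Where every mouse of a group was at 0, a floor of 3 reads served as a bound for the fold. This floor covers counting error only. The fits were tested on simulated data with known changes. Positions are from GENCODE M21. The mouse number pairs populations of 1 animal, and a fit with the mouse as a block had a consensus correlation of 0.0366. The members and lists were chosen with earlier results of these data known. Named genes were the 9 members, list genes past the threshold in at least 4 of 18 comparisons, and the 5 genes other than members most like Cdkn1a by each measure; others that passed in a list were named after their values were seen.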

Additional observations from a re-analysis of the deposited data

Results flagged for a closer look

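Each member was read in each group of 4 to 10 mice where its mean was at least 1 RPKM. Of these 230 sets of a gene and a group, 24 held a mouse apart from the others by Dixon's criterion. Its rate of about 1 in 20 holds for normally distributed values. RPKM values are skewed and hold zeros, so the count cannot be set against that rate. For Cdkn1a these were SMA mouse 31 in ocular neurons at day 5 (273 RPKM), SMA mouse 206 in facial neurons at day 2 (134.3) and control mouse 253 in lumbar neurons at day 10 (15.4). For Ccng1 they were control mouse 28 in facial neurons at day 2 (43.2) and SMA mouse 77 in hypoglossal neurons at day 5 (31.6), for Plk2 SMA mouse 249 in ocular neurons at day 10 (60.3) and for Gtse1 SMA mouse 76 in ocular neurons at day 5 (6.27).

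Ptprv gave the most, 8, all on the high side. SMA mouse 211 stood apart at day 2 in ocular (5.08) and facial (7.86) neurons, and SMA mouse 206 at day 2 in hypoglossal (6.15) and lumbar (25.2) neurons. The others were control mouse 29 in facial neurons at day 5 (7.76), control mouse 75 in hypoglossal neurons at day 5 (5.79), SMA mouse 61 in lumbar neurons at day 5 (4.77) and control mouse 254 in lumbar neurons at day 10 (6.13).

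For Sesn1 the mice apart were SMA mouse 258 in ocular neurons at day 10 (18.0), control mouse 26 at day 2 in facial (28.5) and hypoglossal (18.7) neurons, SMA mouse 18 in the vagus at day 2, on the low side (4.48), control mouse 71 in the vagus at day 5 (10.6) and control mouse 75 in lumbar neurons at day 5 (13.2). For Sesn2 they were control mouse 34 in facial neurons at day 5 (5.70), SMA mouse 46 in lumbar neurons at day 5 (2.01) and control mouse 254 in the red nucleus at day 10 (3.36).

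The difference between SMA and control varied over populations past the threshold in 7 results, given as the gap between the populations with the largest and smallest estimates. The gap was 5.53 for Cdkn1a at day 10 and 3.20 at day 5, 2.26 for Ccng1 at day 10 and 1.60 at day 5, and at day 10 3.06 for Plk2, 2.21 for Gtse1 and 4.003 for Ptprv. In ocular neurons the difference grew from day 2 to day 10 by 5.00 for Cdkn1a, 2.77 for Plk2 and 2.85 for Ptprv. These contrasts were known when the genes were chosen.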

How the results depend on the processing

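Of 24 member calls of SMA against control, 12 passed when only the groups compared were in the fit, and so did 3 of the 12 falls in controls. With a pseudocount of 0.1, 4 of the 7 differences of the SMA response between populations passed. Of the 3 changes of the response with age, 1 passed with no low-value filter and 1 without control mice 240 and 244, which was tried after seeing the data. Leaving out each of 34 mice in turn gave 20 to 25 calls for SMA against control, 8 to 13 for maturation of controls, 10 to 13 for maturation of SMA, 1 to 4 for the response by age, 5 to 7 for the response by population and 13 to 17 (16 with all mice) for population differences in controls. With the mouse as a replicate block the counts over populations were 16 and 7, and no member call changed. Of the 49 single results followed, none changed direction. Under settings other than a left-out mouse, 349 values kept their side of the threshold and 43 no longer passed; with a mouse left out, 1588 kept it, 77 no longer passed and 1 newly did, Cdkn1a in hypoglossal neurons at day 5 without mouse 247. Btg2 in facial neurons at day 10 was lost most often (19 mice), then the fall of Plk3 in facial controls (12), Plk2 in facial neurons at day 5 (11), the fall of Plk2 in hypoglossal controls (10) and Ptprv in lumbar neurons at day 10 (7). Cdkn1a in ocular neurons at day 5 was lost without mouse 29. The cause was not tested. Depth limits the low genes: 3 reads stood for a median of 0.187 RPKM of Gtse1, 0.0879 of Ptprv, 0.186 of Btg2 and 0.146 of Sesn2.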
